A study of Mus musculus with 3 samples.

Results

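The genes described here are 33 enzymes, sensors and transporters of sterol and fatty acid synthesis, most of them known targets of the SREBP transcription factors, in NIH3T3 cells, a mouse fibroblast line. They were chosen as a fixed list of gene symbols, and a probe belonged to a gene when the RefSeq accession that the array gives for it matched the symbol. The list was matched by 46 of the 27235 probes named in this way, and all 33 genes, of 20659 named genes, were represented by a probe that stood well above background on each array. The sterol enzymes numbered 18, the genes of sterol sensing and transport 6 and the fatty acid enzymes 9, and these branches are reported apart.

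Cells make cholesterol from acetyl-CoA through mevalonate, isoprenoid diphosphates, squalene and lanosterol. SREBP2, encoded by Srebf2, mainly raises the transcription of these enzymes and SREBP1, encoded by Srebf1, mainly that of the fatty acid enzymes. Both precursors sit in the membrane of the endoplasmic reticulum, where the carrier SCAP takes them to the Golgi for cleavage when sterols are low, and INSIG proteins hold SCAP back when sterols are high.

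The arrays compared confluent NIH3T3 cells cultured for 24 h without additions (None), with 20 µM AR7, the starting compound of the retinoic acid receptor alpha ligands that the study developed as activators of chaperone-mediated autophagy, or with 20 µM BMS614, an antagonist selective for that receptor. All 3 cultures were wild type NIH3T3 cells in medium with serum, named as fetal bovine serum in the labels and as newborn calf serum in the study's methods. The compounds were dissolved in DMSO and the None sample is labelled as untreated, so whether it received DMSO is not given in the sources used here, and a solvent effect cannot be told apart from an effect common to both compounds. Each condition had 1 one-colour Agilent array, on 1 shared slide. There is therefore no replicate, conditions were not tested and no p-value is given, and each difference is that between 2 arrays.

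Signals are log2 intensities after background correction and quantile normalization, and a difference of 0.263 on that scale is 1.2-fold. A gene was counted as higher or lower at 1.2-fold or more. Beside this count, a difference was set against the SD of repeated spots, that is the SD of the log2 difference between spots of the same probe over 265 probes printed 10 times, taken at the gene's own signal level. This SD ran from 0.384 at the lowest signals to 0.049 at the highest for AR7 against None and from 0.334 to 0.045 for BMS614 against None, and it holds the error of spots but not the variation between cultures. Probes well above background made up 55.4% of probes on the None array, 61.2% on the AR7 array and 61.8% on the BMS614 array. Of the 10 fibroblast markers listed, 9 were well above background on all 3 arrays, Postn was below that mark throughout, and Col3a1 was dim, at 5.56 without additions, 5.23 with AR7 and 5.27 with BMS614.

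The promoters of the sterol enzymes are shown first, since the list was drawn up by a shared regulator. RefSeq windows running from 250 bases before to 50 bases after the transcription start (assembly GRCm38.p6) were found for 15 of the 18 sterol enzymes, 5 of the 6 sensing and transport genes and 6 of the 9 fatty acid enzymes. They were searched on both strands for CCAAT, the box bound by NF-Y, a common partner of the SREBPs, for TCACNCCAC, letters of the sterol regulatory element, alone and in a longer form with A before it that contains the shorter one, and for CACGTG, an E-box. The upstream stretches of 3 promoters are printed 5′ to 3′ on the strand of the gene, without the bases after the start, for the enzyme with the lowest value with BMS614 (Tm7sf2, chr19:6067851-6068100, minus strand), for the enzyme with the most CCAAT boxes among them (Mvk, chr5:114444019-114444268, plus strand) and for the only member with TCACNCCAC (Hmgcs1, chr13:119690101-119690350, plus strand). These 3 were chosen after their values were seen. Capitals mark CCAAT, which reads ATTGG where it lies on the other strand, and TCACNCCAC.
Tm7sf2: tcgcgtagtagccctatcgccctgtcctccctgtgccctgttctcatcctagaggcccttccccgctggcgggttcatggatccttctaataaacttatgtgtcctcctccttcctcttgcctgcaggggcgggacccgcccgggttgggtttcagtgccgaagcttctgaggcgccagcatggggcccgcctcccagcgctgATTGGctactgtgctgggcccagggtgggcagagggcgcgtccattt
Mvk: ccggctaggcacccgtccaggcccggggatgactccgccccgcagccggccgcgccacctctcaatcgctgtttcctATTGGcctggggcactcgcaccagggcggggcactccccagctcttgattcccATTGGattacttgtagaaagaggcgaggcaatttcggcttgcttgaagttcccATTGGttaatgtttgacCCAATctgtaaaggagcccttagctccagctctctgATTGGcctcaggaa
Hmgcs1: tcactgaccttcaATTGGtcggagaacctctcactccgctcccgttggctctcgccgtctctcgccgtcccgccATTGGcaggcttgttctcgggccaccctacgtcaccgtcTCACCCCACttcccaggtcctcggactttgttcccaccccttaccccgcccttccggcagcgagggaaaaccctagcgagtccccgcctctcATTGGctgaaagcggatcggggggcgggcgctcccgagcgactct

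In these stretches Tm7sf2 held 1 CCAAT box, 47 bases before the start, Mvk held 5 and Hmgcs1 held 3 together with 1 TCACCCCAC, 137 bases before the start. CCAAT was found in 14 of the 18 windows of sterol enzymes (77.8%), which belong to 14 of 15 genes, against 37.4% of all 32851 promoter windows. It was found in 5 of 10 windows of the sensing and transport genes and in 3 of 6 windows of the fatty acid enzymes, those of Acly, Acss2 and Fasn. TCACNCCAC was in 1.24% of all windows and, among the members, only in that of Hmgcs1, and no member held the longer form, which was in 0.234% of all windows. The E-box letters were in 3 of 18 windows of sterol enzymes, those of Dhcr7, Hsd17b7 and Sc5d, against 7.15% of all windows. They were in 3 of 10 windows of the sensing and transport genes, of Insig1 and Scap, and in 0 of 6 of the fatty acid enzymes. A match is a match of letters only, and these arrays did not measure binding.

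With AR7, no sterol enzyme differed from None by 1.2-fold on its brightest probe, the probe that stands for a gene here, and the branch as a whole lay slightly to the lower side. Of all 13804 named genes well above background 12.1% were 1.2-fold apart in either direction, 5.9% higher and 6.22% lower, and of the 10069 bright ones, whose log2 signals average 8 or more, 3.19% were. All sterol enzymes except Tm7sf2 lie in that bright range. The median difference of the 18 enzymes was -0.09, that is 0.937 times None, against -0.0028 for all genes, and it stayed between -0.10 and -0.09 when any 1 enzyme was left out. A difference below 0 was found for 15 of 18 enzymes, against 51.0% of all genes and 50.2% of the bright ones. The differences ran from -0.19 to 0.06, so the shift was shared by many enzymes and small in each.

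Past 2 SD of repeated spots, 7 of 18 sterol enzymes were lower with AR7 and 0 higher, against 8.72% of all genes lower and 9.44% higher, and 9.51% and 10.9% of the bright genes. Those that passed were Hmgcs1, which makes HMG-CoA, the kinases Mvk and Pmvk, the isomerase Idi1, the squalene epoxidase Sqle, the lanosterol synthase Lss and the sterol isomerase Ebp. They were thus spread over the early mevalonate steps and the later sterol steps. All except Mvk lay close to the cut, between -2.36 and -2.02 SD, and the count of 7 ran from 6 to 11 under other processing. Mvk had the lowest difference among the 7, with a signal of 15.73 without additions, 15.55 with AR7 and 15.56 with BMS614 on its brighter probe. Its other probe read 13.35 without additions, 13.09 with AR7 and 13.35 with BMS614, a difference of -0.27 with AR7, which is past 1.2-fold. Both probes were lower with AR7 than without additions, while with BMS614 the brighter probe was lower and the other differed by -0.01.

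Lss, which closes squalene epoxide into lanosterol, read 12.80 without additions, 12.66 with AR7 and 12.58 with BMS614. Hmgcs1 read 15.05 without additions, 14.93 with AR7 and 15.09 with BMS614. The None array was thus the highest for Lss, whereas for Hmgcs1 the AR7 array was the lowest and the other two lay close together. Cyp51, the lanosterol demethylase, fell just short of 2 SD, at 12.23 without additions, 12.13 with AR7 and 12.27 with BMS614. The differences of the enzymes not yet given with AR7 were -0.10 for Pmvk, -0.09 for the decarboxylase Mvd, -0.11 for Idi1, -0.03 for the farnesyl diphosphate synthase Fdps, -0.10 for Sqle and -0.10 for Ebp. Those of the enzymes that trim and reduce lanosterol were -0.04 for Msmo1, -0.06 for Nsdhl, -0.06 for Hsd17b7 and -0.07 for Dhcr7. The 3 enzymes with a difference above 0 were the thiolase Acat2 at 0.03, the squalene synthase Fdft1 at 0.06 and the desaturase Sc5d at 0.02, each within 1 SD of repeated spots.

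**Figure D1:**
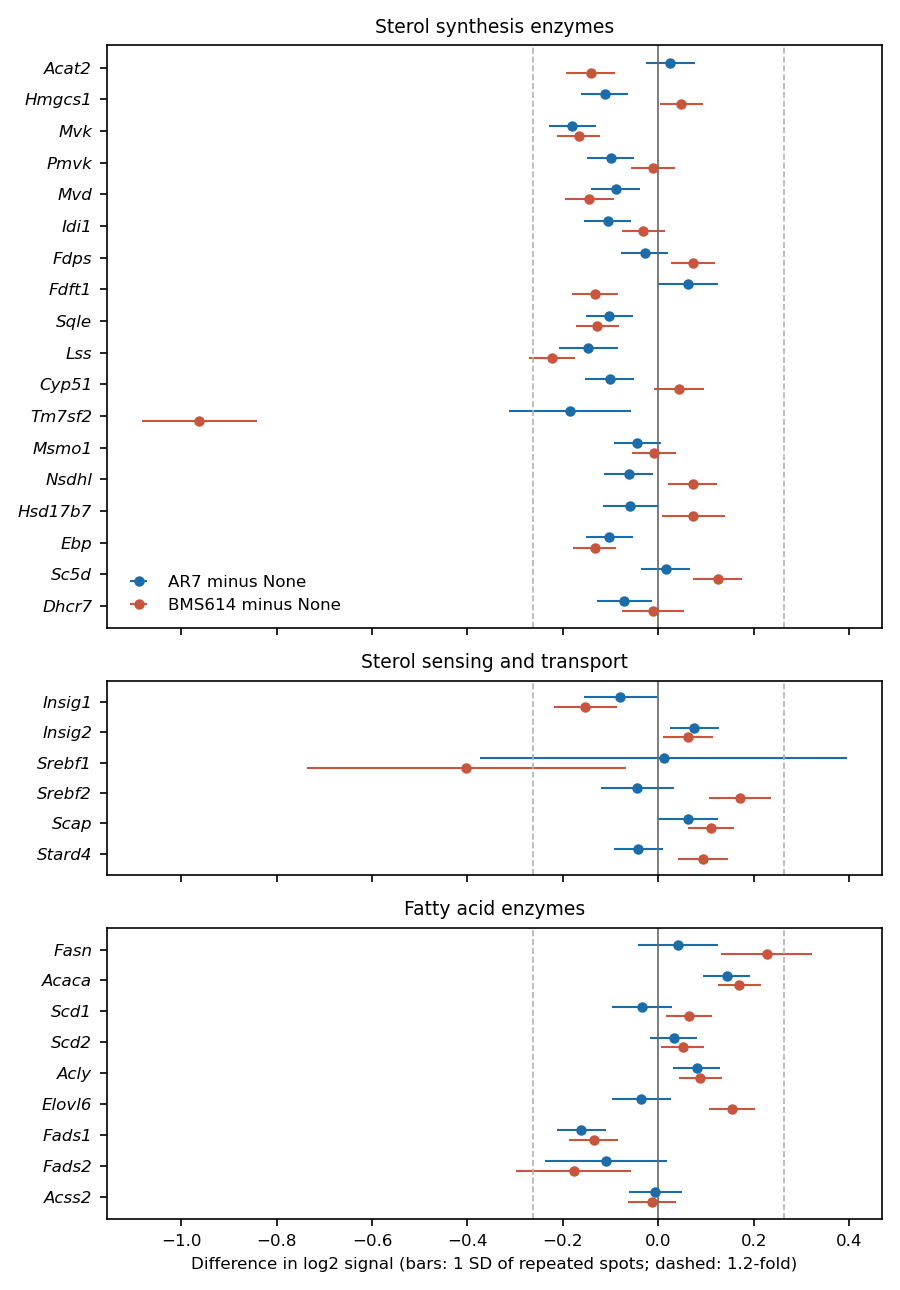
Difference in log2 signal from None for each of the 33 genes, by branch, for AR7 (blue) and BMS614 (red), from 1 array per condition. Points are the brightest probe of a gene, bars are 1 SD of repeated spots at that signal, and dashed lines mark 1.2-fold; Tm7sf2 at -0.96 and Srebf1 at -0.40, both with BMS614, are the points beyond them.

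The plot of differences by gene shows that the blue points of the sterol enzymes lie mostly left of 0, and that Tm7sf2 with BMS614 stands far from all other members. Both sets of differences use the same None array, so the spot and culture error of that array enters both and the 2 columns of points are not independent.

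With BMS614, 1 of 18 sterol enzymes, Tm7sf2, was 1.2-fold lower than None and 0 were higher, against 7.37% of all genes lower and 6.86% higher, 14.2% together, and 5.06% of the bright genes in either direction. Tm7sf2 encodes the sterol reductase of the endoplasmic reticulum that acts right after the lanosterol demethylase. Its brighter probe read 7.93 without additions, 7.75 with AR7 and 6.97 with BMS614. Its other probe read 5.64 without additions, 5.77 with AR7 and 4.98 with BMS614. On both probes the BMS614 array was the lowest, and the None and AR7 arrays lay close to each other. On the brighter probe the signal fell by 0.96 on the log2 scale, to 0.513 times None, and by 8.01 SD of repeated spots. On the dimmer one the difference was -0.66, or -1.98 SD. Over all genes, 45 of 13804 (0.326%) were at least as low with BMS614, and so were 7 of the 2483 genes within 1 log2 unit of its signal (0.282%). In a culture measured in bulk, fewer cells that express a gene and less of its RNA per cell cannot be told apart.

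The direct comparison of the compounds does not use the None array but rests on the same BMS614 spots, so it is not independent of the values above. In that comparison the same 2 probes set Tm7sf2 apart. It was 1.71-fold higher with AR7 than with BMS614 on the brighter probe, a difference of 0.78 or 6.83 SD of repeated spots, and 1.73-fold higher on the dimmer one, a difference of 0.79 or 2.14 SD. With AR7 the brighter probe differed from None by -0.19 and the dimmer one by 0.13, which are -1.45 and 0.34 SD. The gene Lbr, whose product carries out the same reduction and which was added after the values of Tm7sf2 were seen, read 11.02 without additions, 10.90 with AR7 and 11.07 with BMS614 on one probe. On its other probe it read 7.91, 8.06 and 7.83 in the same order. No difference of Lbr from None reached 1.2-fold, and its probes differed in direction with both compounds.

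**Figure D2:**
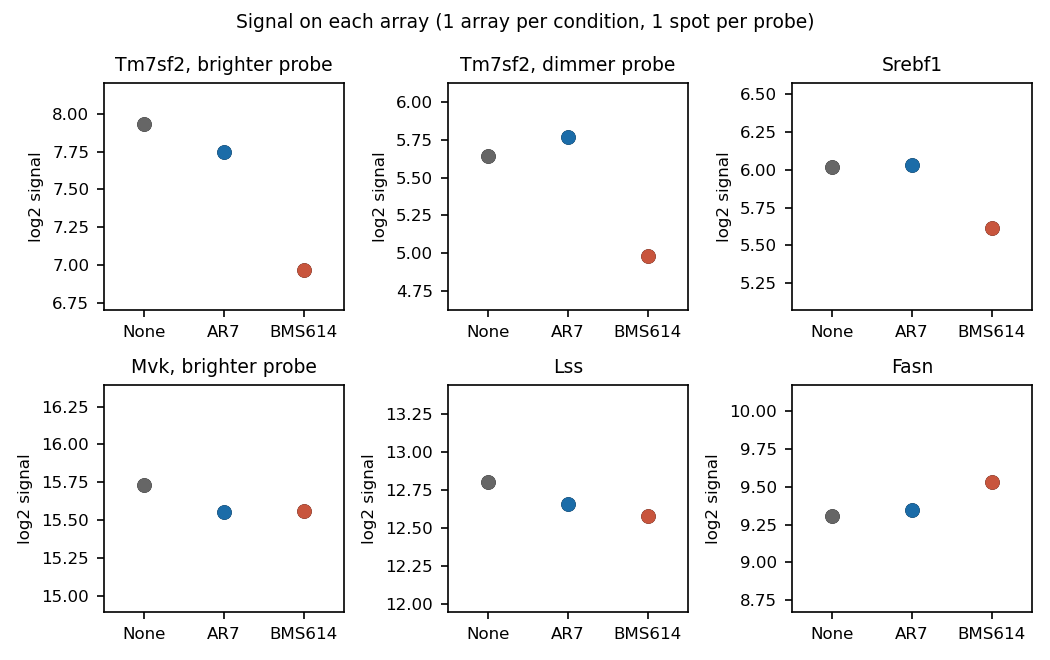
Log2 signal on each array for Tm7sf2 (both probes), Srebf1, Mvk (brighter probe), Lss and Fasn; each point is 1 spot on 1 array, and each panel spans the same log2 range around its own values. Both Tm7sf2 probes are lowest with BMS614, at 6.97 and 4.98.

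The other 17 sterol enzymes are harder to place with BMS614. The median over all 18 was -0.02, against 0.0008 for all genes. Of the 18, 12 were below 0 and 6 above, against 49.5% of all genes and 48.4% of the bright genes below 0. Past 2 SD of repeated spots 8 were lower and 1 higher, against 12.1% of all genes lower and 13.4% higher, and 13.2% and 15.3% of the bright genes. Besides Tm7sf2, those lower were Acat2 (-0.14), Mvk (-0.17), Mvd (-0.14), Fdft1 (-0.13), Sqle (-0.13), Lss (-0.22) and Ebp (-0.13), and the one higher was Sc5d (0.12). The remaining differences lay between -0.03 for Idi1 and 0.07 for Hsd17b7, with Hmgcs1 at 0.05, Pmvk at -0.01, Fdps at 0.07, Cyp51 at 0.04, Msmo1 at -0.01, Nsdhl at 0.07 and Dhcr7 at -0.01.

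Set directly against each other, AR7 and BMS614 differed by 1.2-fold in 1 of 18 sterol enzymes, Tm7sf2, which was higher with AR7, with 11.9% of all genes that far apart in either direction, 5.96% higher and 5.97% lower, and 4.38% of the bright genes. Past 2 SD of repeated spots 8 enzymes were lower with AR7 than with BMS614 and 3 higher, against 14.1% of all genes lower and 13.9% higher, and 17.2% and 17.1% of the bright genes. Those lower with AR7 were Hmgcs1 (-0.16), Pmvk (-0.09), Idi1 (-0.07), Fdps (-0.10), Cyp51 (-0.15), Nsdhl (-0.13), Hsd17b7 (-0.13) and Sc5d (-0.11). Those higher were Acat2 (0.17), Fdft1 (0.20) and Tm7sf2. The dimmer probe of Mvk was lower with AR7 than with BMS614, at -0.26, whereas on the brighter probe the compounds differed by -0.01.

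Among the genes that sense and move sterols, Srebf1 was the only one 1.2-fold apart from None on its brightest probe, and that with BMS614. It read 6.02 without additions, 6.03 with AR7 and 5.62 with BMS614. The BMS614 array was the lowest, but the probe is dim, and the difference of -0.40 is -1.20 SD of repeated spots at that signal. Of all genes, 3.79% were at least as low with BMS614, and of the 2214 genes within 1 log2 unit of its signal 15.4% were. With normexp background correction the difference of Srebf1 was -0.19, short of 1.2-fold. Under the reported processing the count is 1 of 6 lower with BMS614, against 7.37% of all genes. With AR7 0 of 6 were apart, against 12.1% in either direction. In the direct comparison Srebf1 was higher with AR7 by 0.41, or 1.12 SD. The gene just short of 1.2-fold with BMS614 was Fasn at 0.23, and that just short with AR7 was Tm7sf2 at -0.19.

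Srebf2, the regulator of the sterol branch, read 9.92 without additions, 9.88 with AR7 and 10.09 with BMS614, so that the BMS614 array was the highest, by 2.62 SD of repeated spots over None. Its dimmer probe went another way, at 7.12 without additions, 6.81 with AR7 and 6.86 with BMS614, where the None array was the highest and the AR7 difference of -0.31 is -1.42 SD. Insig1, a retention protein and itself a well known SREBP target, read 10.16 without additions, 10.08 with AR7 and 10.01 with BMS614. It was -2.34 SD of repeated spots from None with BMS614 and -1.03 SD with AR7. Insig2 differed by 0.08 with AR7 and 0.06 with BMS614, and Scap by 0.06 and 0.11, the latter past 2 SD. Stard4, a soluble carrier of cholesterol, differed by -0.04 with AR7 and 0.09 with BMS614 on its brighter probe. Its other probe read 9.41 without additions, 9.09 with AR7 and 9.34 with BMS614, a difference of -0.32 or -3.79 SD with AR7, so the 2 probes of Stard4 gave the same direction with AR7 at very different sizes. The median of the 6 genes was -0.02 with AR7 and 0.08 with BMS614. When any 1 gene was left out, the median with AR7 ran from -0.04 to 0.01 and that with BMS614 from 0.06 to 0.09. On the brightest probes, 2 of 6 genes were higher and 1 lower past 2 SD with BMS614, against 13.4% of all genes higher and 12.1% lower. With AR7 0 were past 2 SD, against 9.44% of all genes higher and 8.72% lower. Set directly against each other, Srebf2 (-0.22) and Stard4 (-0.14) were lower with AR7 than with BMS614 past 2 SD on their brighter probes. These are 2 of 6, against 14.1% of all genes and 17.2% of the bright genes lower.

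No fatty acid enzyme reached 1.2-fold with either compound on its brightest probe, against 3.19% of the bright genes with AR7 and 5.06% with BMS614, the range in which all 9 lie, and 12.1% and 14.2% of all genes. With AR7 the 9 enzymes had a median difference of -0.01, with 5 below 0 and 4 above, against 50.2% of the bright genes below 0. When any 1 enzyme was left out, this median ran from -0.02 to 0.01, so its sign rests on single enzymes. With BMS614 the median was 0.06, with 3 below 0 and 6 above, against 48.4% of the bright genes below 0. Past 2 SD of repeated spots, Acaca was higher and Fads1 lower with AR7, against 10.9% of the bright genes higher and 9.51% lower. With BMS614 Fasn, Acaca and Elovl6 were higher past 2 SD and Fads1 was lower, against 15.3% of the bright genes higher and 13.2% lower. The direct comparison put 3 of 9 lower with AR7 than with BMS614 past 2 SD, Fasn (-0.19), Elovl6 (-0.19) and Scd1 (-0.10), and 0 higher. The shares were 14.1% of all genes lower and 13.9% higher, and 17.2% and 17.1% of the bright genes.

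Fasn, the fatty acid synthase, read 9.31 without additions, 9.35 with AR7 and 9.53 with BMS614. Elovl6, which lengthens the synthase's main product palmitate, read 13.30 without additions, 13.26 with AR7 and 13.45 with BMS614. For both enzymes the BMS614 array was the highest and the other 2 arrays lay within 1 SD of repeated spots of each other. Acaca, the acetyl-CoA carboxylase of the cytosol, had 3 probes. The brightest read 13.81 without additions, 13.95 with AR7 and 13.98 with BMS614. The other probes read 6.53 and 5.39 without additions, 6.31 and 5.03 with AR7, and 6.05 and 4.60 with BMS614. The brightest probe was thus lowest without additions and both dim ones highest there, with differences of -0.48 and -0.80 with BMS614, which are -2.44 and -2.38 SD, so no direction can be given for Acaca as a gene.

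Fads1, the desaturase that forms arachidonic acid, read 12.32 without additions, 12.16 with AR7 and 12.18 with BMS614, lower with both compounds by more than 2 SD. Its neighbour in the pathway Fads2 differed by -0.11 with AR7 and -0.18 with BMS614, within 2 SD. The stearoyl-CoA desaturases differed by -0.03 with AR7 and 0.06 with BMS614 for Scd1 and by 0.03 and 0.05 for Scd2. Among the suppliers of acetyl-CoA, Acly, the citrate lyase, differed by 0.08 with AR7 and 0.09 with BMS614, and Acss2, which activates acetate, by -0.01 with each. None of these differences of Scd1, Scd2, Acly and Acss2 passed 2 SD.

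**Figure D3:**
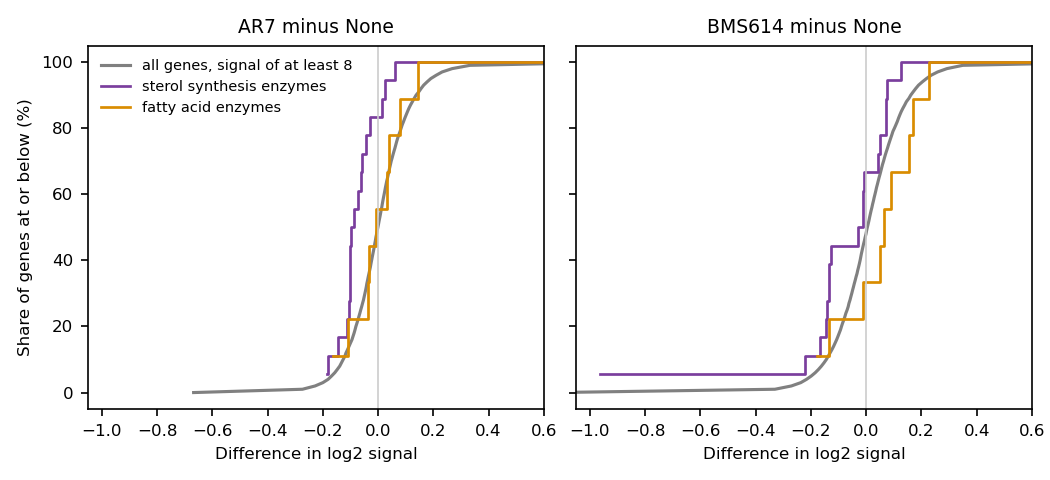
Share of genes at or below each difference in log2 signal from None, for the 18 sterol enzymes, the 9 fatty acid enzymes and the 10069 bright named genes (mean log2 signal 8 or more). With AR7 the sterol curve lies left of that of the bright genes (medians -0.09 and -0.0005), and with BMS614 its lowest point is Tm7sf2 at -0.96, followed by Lss at -0.22.

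The plot of cumulative shares sets both branches against the bright genes, a set that was not matched to the members by signal. Tm7sf2 lies below the signal range of that set. With AR7 the sterol enzymes lay to the left of the bright genes along most of the curve, and the fatty acid enzymes ran close to the bright genes. With BMS614 the fatty acid enzymes lay to the right over most of the curve, by less than 1.2-fold at every gene.

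Probes of the same gene were a second measurement within each array. In 11 member genes more than 1 probe stood well above background on each array. The probes of 8 of these genes gave differences of the same sign with AR7, and those of 3 genes did with BMS614, so the sign of a single probe near 0 is not settled. The other probes of Pmvk, Nsdhl, Hsd17b7, Insig2, Acly and Acss2 differed from None by -0.11 to 0.10 with AR7 and by -0.17 to 0.06 with BMS614. Of the 46 member probes 45 stood well above background on each array, and the exception was the dimmer probe of Fdft1, which did so with AR7 only. Over all probes well above background, 18 of 23 for sterol enzymes were below 0 with AR7, with a median of -0.09, and 16 of 23 with BMS614, with a median of -0.03. Counted by gene and not by probe, 51.0% of all genes were below 0 with AR7 and 49.5% with BMS614. For the 13 probes of fatty acid enzymes the medians were -0.03 with AR7 and 0.05 with BMS614.

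Other genes of the pathway were counted by the same rule. Of 8 genes of SREBP cleavage and sterol-regulated degradation, 0 were 1.2-fold apart with either compound, against the 12.1% of all genes with AR7 and 14.2% with BMS614 given above, or 3.19% and 5.06% of the bright genes. Lists this small hold few such genes at those shares, which also apply to the lists that follow. The medians of these 8 genes were 0.03 with AR7 and 0.07 with BMS614. Erlin2, a membrane protein of that degradation route, differed by 0.20 with AR7 and 0.19 with BMS614, and Pgrmc1, a heme-binding membrane protein, by -0.10 and 0.16. Of 8 further SREBP targets of lipid synthesis 0 were 1.2-fold apart, with medians of -0.03 and -0.03, and the values nearest to that were -0.26 for the carboxylase Acacb with AR7 and -0.25 for Pcyt2, of phosphatidylethanolamine synthesis, with BMS614. Of 6 genes of the isoprenoid side branch 0 were 1.2-fold apart, with medians of -0.02 and -0.02.

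Of the oxysterol receptors LXR and their targets, 3 genes were well above background on all arrays and 0 of these were 1.2-fold apart. Of all genes 12.1% were with AR7 and 14.2% with BMS614, and 3 genes are too few to differ from these shares. The sterol exporters Abca1 and Abcg1 stayed below the background mark on every array, so the loss of sterols through them cannot be read here. Nr1h3, which encodes LXR alpha, had 1 probe well above background with AR7 only. It read 6.44 with AR7, 4.08 without additions and 4.06 with BMS614. It was at least 3.91-fold higher with AR7 than without additions and at least 5.22-fold higher than with BMS614, each fold being a bound set by the dim array. These bounds make no allowance for the error of spots, whose SD at that signal was 0.384 against None and 0.369 against BMS614. The other probe of Nr1h3 stayed below the background mark on all 3, so 1 spot on 1 array carries this value.

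**Figure D4:**
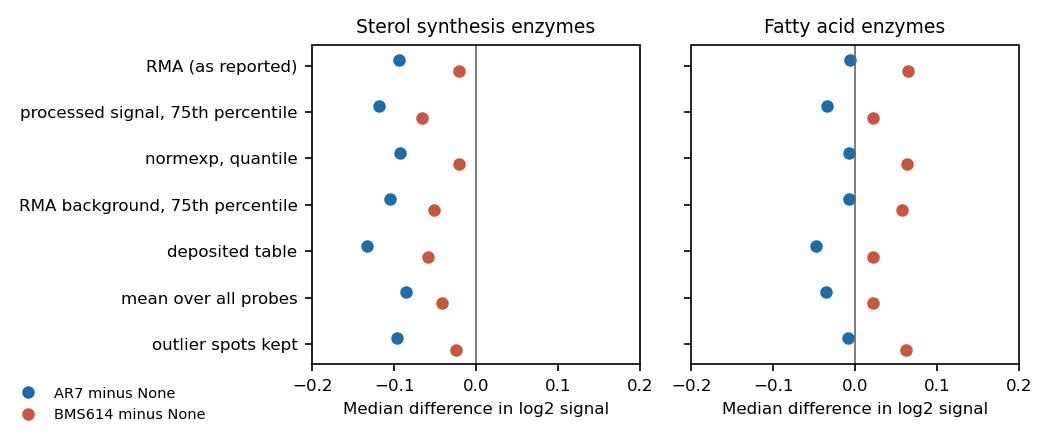
Median difference in log2 signal from None of the 18 sterol and the 9 fatty acid enzymes under the reported processing (top row) and 6 alternatives. The sterol median with AR7 stays between -0.13 and -0.08 under the alternatives and the fatty acid median with BMS614 between 0.02 and 0.06.

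The plot of medians by processing shows the sign of the sterol and of the fatty acid median kept under all 6 alternatives run, whereas that of the sensing and transport genes with BMS614 went from 0.08 to -0.015 with all probes of a gene averaged. The sterol median with BMS614 ran from -0.07 to -0.02 under them and the fatty acid median with AR7 from -0.05 to -0.01. The number of sterol enzymes below 0 with AR7 ran from 15 to 17 and the number lower past 2 SD from 6 to 11. The values of Tm7sf2 with BMS614 ran from -0.97 to -0.63, nearest to 0 with normexp background correction, and were past 1.2-fold in each. Those of Srebf1 ran from -0.41 to -0.19 and lost the 1.2-fold call with that correction.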

How the data were processed

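RNA of NIH3T3 cells was hybridized to 1 one-colour Agilent array per condition (None, AR7 and BMS614), and samples were grouped by the treatment in their labels. The authors deposited scanner output, an intensity for every spot that was not normalized between arrays, and a table of processed values. The columns of the deposited table are each a linear function of the background-subtracted intensity of its array (Pearson's r 1.00 over 55249 probes with 1 spot), with medians of 65.0 for None, 70.7 for AR7 and 67.5 for BMS614. It was used as an alternative, with 16 as the floor of the log2 step. The study's methods name RMA in the oligo package, and so do the submitters' processing notes.

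That method was followed without the oligo package. The RMA convolution background was applied to the median pixel intensity of 59305 spots per array that are not controls, with spots marked as outliers left out, and was followed by quantile normalization over the 3 arrays, log2 and averaging of the spots of a probe. All member probes had 1 spot, and 0 of these were marked as outliers or saturated. A probe was taken as well above background where over 50% of its spots were marked so. The brightest probe on average stood for its gene, and 21 member genes had 1 probe, 11 had 2 and 1 had 3. RefSeq accessions named 27235 of 55681 probes through a table of the assembly GRCm38.p6. Coordinates are given only for the promoter windows, which are those of RefSeq on that assembly, and none for the probes, since the array design uses another build.

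With 1 array per condition no test was made, and the number of arrays limits the precision. The SD of repeated spots was taken in 10 bins of signal. Shares over all genes used the 13804 named genes whose probe stood well above background on each array. All 33 members are named, with the value on every array for those 1.2-fold apart. Values on every array of further members, Lbr and the promoters printed were chosen after values were seen, since by the rule for promoters (members 1.2-fold apart that hold TCACNCCAC) none would be shown. Members and lists were chosen with earlier results of these data known. Some genes of these pathways are not reported here. The counting step was tested on simulated data. Background correction and normalization ran in R 4.3.3 and limma 3.58.1. Tables and figures were made in Python 3.11.15 using matplotlib 3.10.9, scipy 1.17.1, pandas 2.3.3 and numpy 2.4.6. The alternatives were normexp correction (offset 50), the scanner's processed signal after scaling to the 75th percentile, the RMA background with that scaling, the deposited table, averaging of all probes of a gene, outlier spots kept, no filter on dim probes, and thresholds of 1.5-fold and 2-fold.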

Additional observations from a re-analysis of the deposited data

How the results depend on the processing

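No alternative turned the direction of a difference from None called at 1.2-fold. Only Tm7sf2 and Srebf1 had such a call, both with BMS614. Differences past 2 SD of repeated spots did turn for Acaca and Srebf2 with all probes of a gene averaged. Acaca went from 0.14 to -0.15 with AR7 and from 0.17 to -0.37 with BMS614, and Srebf2 with BMS614 from 0.17 to -0.04. The sign of the sterol and fatty acid medians was kept in every comparison under the 6 ways of processing. The counts at 1.2-fold moved as follows. With the processed signal scaled to the 75th percentile the number of sterol enzymes apart with AR7 went from 0 to 1, which is Mvk at -0.28. With normexp background correction and quantile normalization the number of sensing and transport genes apart went from 1 to 0, with BMS614 against None and with AR7 against BMS614. With all probes of a gene averaged, the median of the sensing and transport genes with BMS614 was -0.015 in place of 0.0781, and the number of fatty acid enzymes apart with BMS614 went from 0 to 1, which is Acaca at -0.37. At the 1.5-fold and the 2-fold threshold 0 sensing and transport genes were apart with BMS614 against None or with AR7 against BMS614, and at the 2-fold threshold 0 sterol enzymes were apart in either of these comparisons. The causes were not tested, apart from the thresholds, which are stricter by construction, and Acaca, whose dim probes enter the mean. Of 396 values of single genes under alternatives, 351 moved by less than 1 SD of repeated spots or kept their call, and 45 moved. A 1.2-fold call was reversed in 0, which only Tm7sf2 and Srebf1 with BMS614 could have shown. Of 66 differences from None, 14 had the opposite sign under at least 1 alternative. Without the filter on dim probes the counts were the same, since all 33 genes pass it. The mean pixel intensity and a gene symbol column of the scanner files were planned and not run, since the files used here hold neither, and normexp used the median pixel intensity for the same reason. No paired analysis was possible because there was a single array for each condition. Signal over background limits Srebf1 and the dim probes of Tm7sf2, Fdft1 and Acaca, where the SD of repeated spots with AR7 lies between 0.216 and 0.384.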

Other observations

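Genes of fat storage and of other cells were counted beside the members, since lipid genes are high in fat cells. Of 7 adipocyte markers 3 were well above background on all arrays, and Adipoq and Lep were not on any. Fabp4, a fatty acid carrier of fat cells, read 8.96 without additions, 8.68 with AR7 and 8.74 with BMS614, which is 1.2-fold lower with AR7 only. Cidec, a lipid droplet protein, read 4.92 without additions, 5.03 with AR7 and 5.49 with BMS614 on its brighter probe, and was 1.2-fold higher with BMS614 by 0.57, at an SD of repeated spots of 0.334, with a second probe not well above background. Pparg differed by -0.18 with AR7 and -0.05 with BMS614. Plin1 and Cebpa were not well above background without additions and were dim with both compounds. Cebpa was at least 1.27-fold higher with AR7 and at least 1.31-fold higher with BMS614. Plin1 was at least 1.24-fold higher with AR7 and at least 1.203-fold higher with BMS614. These bounds make no allowance for the error of spots, whose SD at those signals was 0.384 with AR7 and 0.334 with BMS614.

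Of the markers of other cells Epcam, of epithelium, and Alb, of liver, stayed below the background mark on every array. Cdh1, also of epithelium, and Pecam1, of endothelium, were well above background on all 3, with Cdh1 at 5.74 without additions, 5.56 with AR7 and 5.69 with BMS614 and Pecam1 at 7.36, 7.41 and 7.50 in the same order, and neither was 1.2-fold apart from None. The leukocyte marker Ptprc was not well above background without additions and read 4.82 with AR7 and 4.67 with BMS614. It was at least 1.27-fold and at least 1.15-fold higher, without allowance for the error of spots (SD 0.384 and 0.334). The None array had the smallest share of probes well above background, and the part of that in these bounds was not tested.

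Of the 9 fibroblast markers measured, 4 were below None and 5 above with AR7, and 3 below and 6 above with BMS614. Of all genes, 51.0% were below None with AR7 and 49.5% with BMS614. Col3a1 was the only one 1.2-fold apart, at -0.33 with AR7 and -0.29 with BMS614, each within 1 SD of repeated spots. That far apart were 12.1% of all genes with AR7 and 14.2% with BMS614. Past 2 SD, Fn1 was higher (0.13) and Thy1 lower (-0.23) with AR7, against 9.44% of all genes higher and 8.72% lower. With BMS614 4 markers were higher past 2 SD, among them Col1a1 (0.25) and Fn1 (0.17), and Thy1 was lower (-0.11). The shares of all genes with BMS614 were 13.4% higher and 12.1% lower. Set directly against each other, all 9 were lower with AR7 than with BMS614, by -0.17 to -0.02, against 50.4% of all genes. Past 2 SD 4 of them were lower, against 14.1% of all genes and 17.2% of the bright genes. The part of these marker differences in the values of the lipid genes was not tested.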
